A study of Rattus norvegicus with 12 samples.

Results

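The transcripts described here were at least several times higher in T cell receptor transgenic CD4+ T cells from blood than in wild-type CD4+ T cells from blood. Of the 32754 gene rows in every library, 152 qualified. Levels were CPM, that is, a gene's count divided by the library's total count and multiplied by 1000000. A row had to reach a mean of 2 CPM in transgenic blood. Its mean plus a pseudocount of 0.5 had to be at least 4 times that in wild-type blood, and its lowest transgenic blood library had to lie above its highest wild-type library. These values chose the genes, so the difference between the genotypes in blood is a description and was not tested for them. What was open to measurement is whether these transcripts stayed at the transgenic blood level in the meninges and in the brain parenchyma, or shifted there.

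The 12 libraries came from rats of the strain LEW/Crl and from β-synuclein-reactive CD4+ T cells, sorted 3 days after intravenous transfer. There were 3 libraries in each of 4 groups: wt cells from blood, and b-syn TCR Tg cells from blood, from the meninges of the brain and from the brain parenchyma. Wild-type cells from the meninges or parenchyma are not analysed here. The digit after the tissue code in the sample titles was 4 for the parenchyma and 3 for the other groups, with a meaning that the labels leave unstated; if it is a day, tissue and day cannot be told apart. Of the 2 library kits in the labels (TruSeq and NEBNext for low input), the one used for a given library is not stated, and a kit that differed between groups cannot be told apart from the group. The labels do not say whether replicates are separate animals; the p-values therefore reflect the scatter of these samples alone, and that scatter may be technical.

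β-Synuclein is a neuronal protein of the presynaptic terminal. A CD4+ T cell recognises a peptide of its antigen through its T cell receptor, and in a receptor transgenic animal most T cells carry the same, preset receptor. Cells of that kind that are transferred into the bloodstream can pass through the meninges, the membranes around the brain, before they enter the parenchyma, the nervous tissue itself. Genes carry only Ensembl rat identifiers in the files, with no names, so they are given by identifier and their functions are not described. For the same reason the labelled cell type could not be checked against its defining markers, and signal from other cell types in the sorted samples was not tested. In bulk libraries such as these, fewer cells that express a gene and less RNA per cell cannot be told apart.

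Library totals ran from 16643832 to 38601400 counts, and the wild-type blood libraries were the deepest of the blood libraries. A mean of 2 CPM in transgenic blood was reached by 9787 rows, of which 2517 also lay above every wild-type library. The 152 genes are 6.04% of those 2517 rows and 0.464% of all rows. For scale, edgeR called 13.1% of the 11618 genes tested in the blood libraries higher in transgenic than in wild-type cells; nothing is read from that for the 152, which were chosen on the same contrast.

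Most of the 152 genes sat close to the threshold, and a few lay far beyond it. The ratio of the means ran from 4.006 to 28.79 with a median of 4.887, and was below 6 for 120 genes and at least 10 for 10. Just inside the threshold lay genes with ratios of 4.006, 4.011 and 4.023, and just outside it rows with 3.986, 3.962 and 3.959. Mean levels in transgenic blood ran from 2.44 to 715 CPM with a median of 43.4 CPM, against 0 to 114 CPM with a median of 8.27 CPM in wild-type blood. Thus most of these transcripts were present in wild-type cells too, at a lower level. The lowest transgenic blood library exceeded the highest wild-type library by a median factor of 2.79. That factor was as small as 1.17, and was under 1.5 for 4 genes.

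Single genes show the 2 ends of that range. ENSRNOG00000012906 had 0 counts in all wild-type libraries and stood at 13.1, 16.0 and 12.6 CPM in transgenic blood. It is the gene with the largest ratio, and the only one of the 152 without a wild-type count. Against a floor of 3 counts over the wild-type group, it was at least 489-fold higher in transgenic blood; the floor covers counting error only. ENSRNOG00000057643, with the next largest ratio (25.66), stood at 0.725, 0.494 and 0.300 CPM in wild-type blood and at 21.7, 22.2 and 32.1 CPM in transgenic blood. The highest level in transgenic blood belonged to ENSRNOG00000053047, at 932, 618 and 595 CPM against 80.5, 52.7 and 209 CPM in wild-type blood. All 3 genes had transgenic libraries well apart from the wild-type ones, but at levels that differed widely.

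Within transgenic blood the members were not equally even. The highest library was a median of 1.64 times the lowest, and more than 3 times the lowest for 8 genes. The widest was ENSRNOG00000036604, at 79.3, 7.29 and 9.67 CPM in transgenic blood replicates 1, 2 and 3 and between 4.02 and 5.51 CPM in wild-type blood. Next came ENSRNOG00000021802, at 236, 32.1 and 53.2 CPM against 23.4 to 27.4 CPM. For both genes transgenic blood replicate 1 alone carried most of the ratio, and the other two replicates lay less far above wild-type blood. These 2 genes were singled out after their values were seen.

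**Figure D1:**
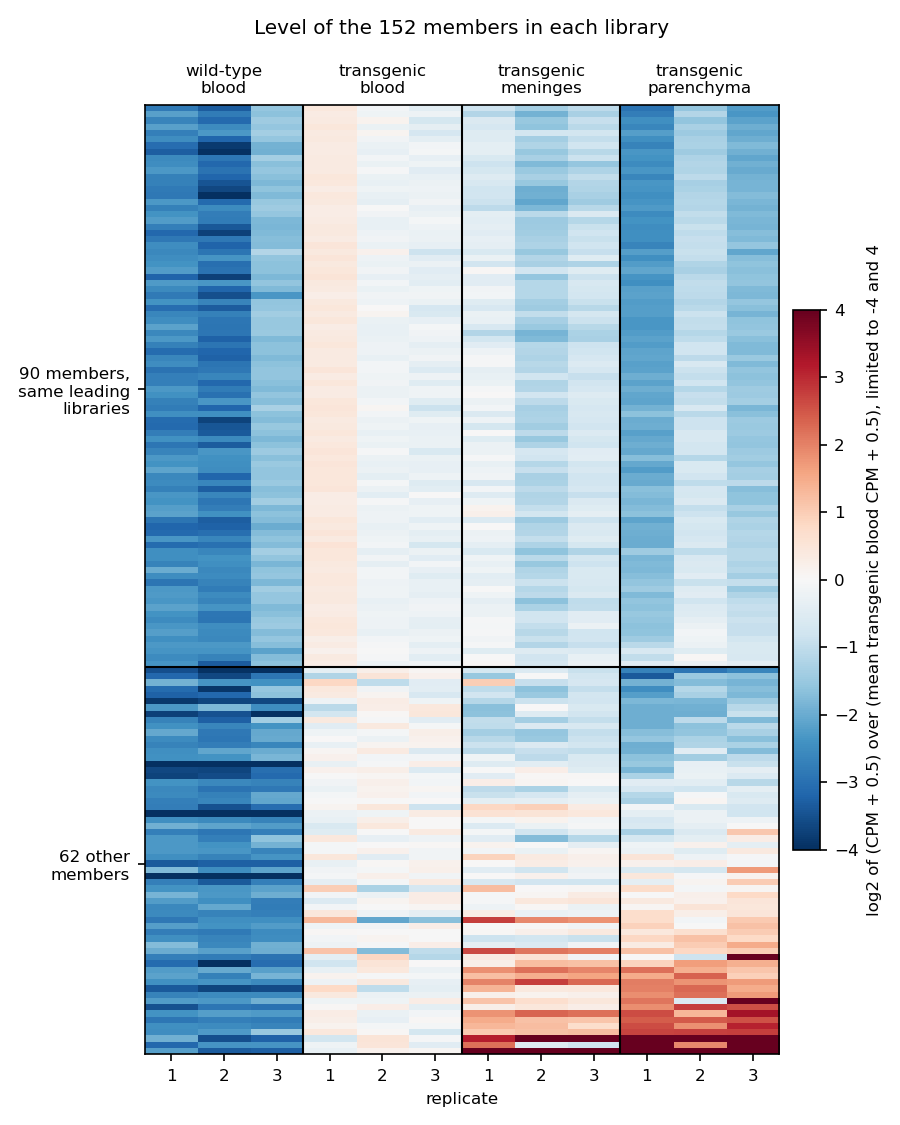
Level of each of the 152 genes (rows) in each of the 12 libraries (columns, 3 replicates per group), as log2 of (CPM + 0.5) over the mean of transgenic blood plus 0.5, with colours limited to -4 and 4. The upper block holds the 90 genes that share their highest library in all 4 groups and are pale to blue in the tissues; the lower block holds the other 62, which run from blue to deep red.

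The 152 genes were divided, by which library was highest in each group, into a block and a remainder. For 90 genes the highest library was the same one in every group: replicate 3 in wild-type blood, replicate 1 in transgenic blood, replicate 1 in the meninges and replicate 2 in the parenchyma. Among the 12105 genes tested over all 12 libraries, 5.21% had that same set of highest libraries. Taken group by group, these libraries were the highest for 118, 109, 109 and 115 of the 152 genes. The shares among the genes tested were 35.4%, 28.5%, 34.3% and 38.3%. Genes of the remainder thus shared some of these libraries. The division into block and remainder was made after the values were seen and is used only to describe. The leading libraries held 29959282, 21229957, 23504826 and 21840045 counts, and were neither all the deepest nor all the shallowest of their groups.

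On the log2(CPM + 0.5) scale their median deviation from the group mean was -0.19, -0.55 and 0.75 in wild-type blood replicates 1, 2 and 3. It was 0.42, -0.16 and -0.25 in transgenic blood, 0.44, -0.45 and -0.01 in the meninges, and -0.59, 0.62 and -0.03 in the parenchyma. For the other 62 genes the medians stayed between -0.12 and 0.11 in every library. That the leading library lies above the group mean, and the other two on average below it, follows from how the 90 genes were grouped. What moves these genes from library to library was not tested.

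**Figure D2:**
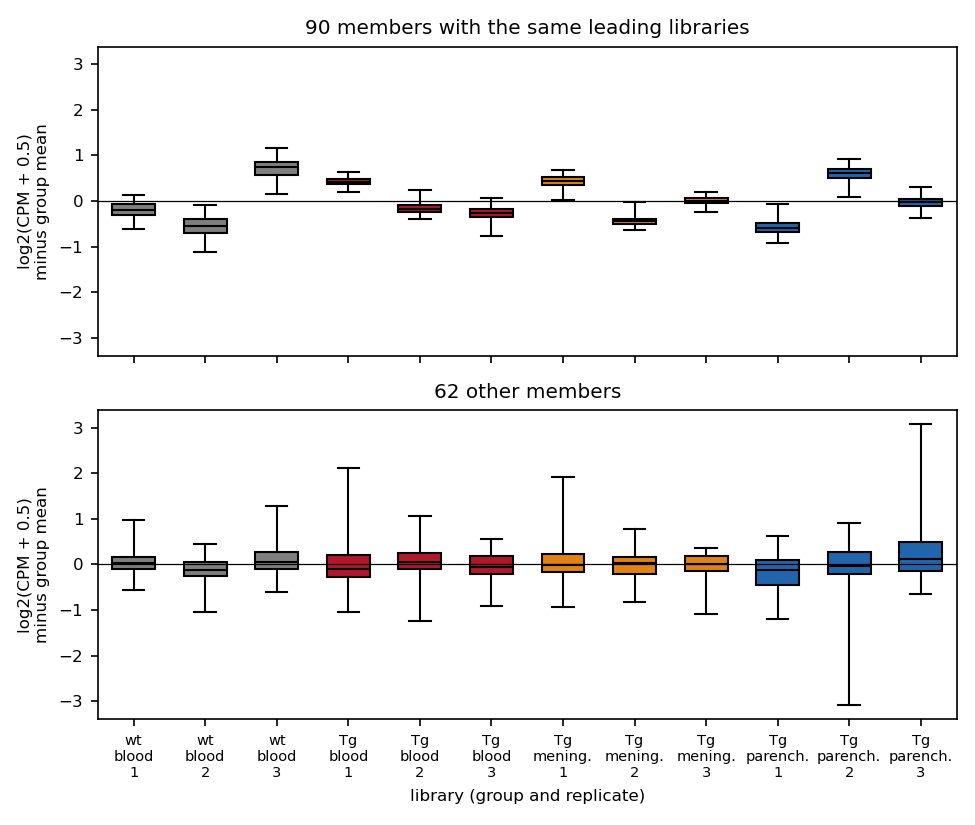
Deviation of each gene from its group mean, in log2(CPM + 0.5), by library; boxes span the lower to the upper quartile of the genes with the median as a line, and whiskers reach the lowest and highest gene. Wild-type blood 3, transgenic blood 1, meninges 1 and parenchyma 2 stand above 0 for the 90 genes (upper panel, medians 0.75, 0.42, 0.44 and 0.62), whereas the medians of the other 62 (lower panel) lie near 0.

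The 2 sets also differed in level and ratio. The 90 genes had a median of 65.3 CPM in transgenic blood and ratios of 4.006 to 7.114 (median 4.631). The 62 others had a median of 14.1 CPM and ratios of 4.074 to 28.79 (median 5.741), and all 14 genes with a ratio of at least 8 were among them. The largest ratios thus belonged to genes outside the block. Ratio and grouping both use the blood libraries, so this difference between the sets is a description only.

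In all, the 152 genes took a similar part of the transcriptome in blood, meninges and parenchyma of transgenic cells, while its division among the genes differed. Their share of all counts was 0.173%, 0.140% and 0.298% in the wild-type blood libraries and 1.34%, 0.969% and 0.915% in transgenic blood. It was 1.10%, 0.831% and 0.926% in the meninges and 0.891%, 1.08% and 1.16% in the parenchyma. The ranges of the 3 transgenic groups overlapped. The share of the 90 genes was 1.04%, 0.690% and 0.635% in transgenic blood, 0.607%, 0.328% and 0.450% in the meninges and 0.181%, 0.422% and 0.269% in the parenchyma. Every blood library thus lay above every library of either tissue, although the meninges and the parenchyma overlapped. For the 62 others the share was 0.307%, 0.279% and 0.279% in transgenic blood, 0.490%, 0.503% and 0.477% in the meninges and 0.710%, 0.657% and 0.893% in the parenchyma. These 3 groups did not overlap and stood in that order. The order of the 2 tissues rested on the 3 most abundant genes in the parenchyma, ENSRNOG00000000562, ENSRNOG00000011406 and ENSRNOG00000005825, singled out after their values were seen. Without them the share of the other 59 genes was 0.275%, 0.257% and 0.252% in transgenic blood, 0.387%, 0.388% and 0.369% in the meninges and 0.376%, 0.3945% and 0.428% in the parenchyma. Both tissues still lay above blood, but they overlapped with each other.

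**Figure D3:**
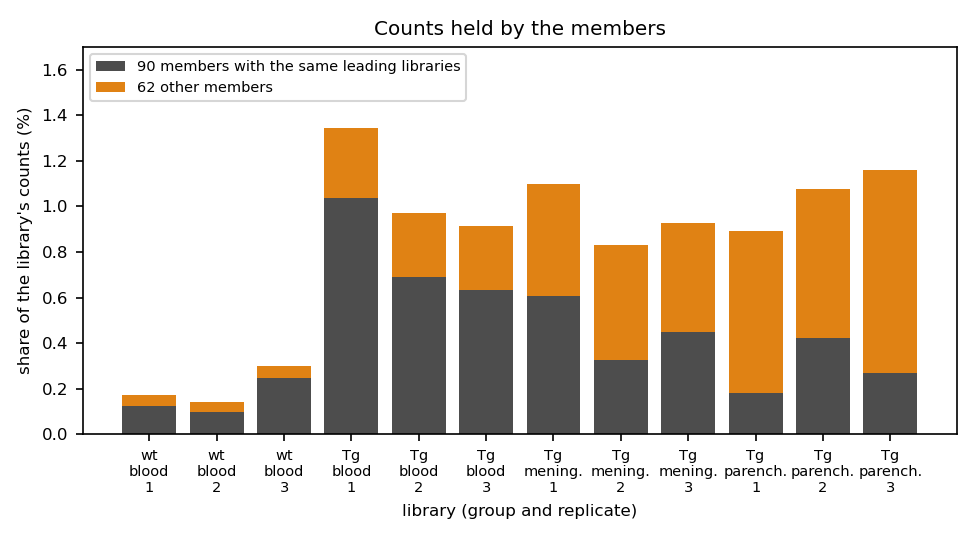
Share of each library's counts (%, bar from 0) held by the 90 genes with the same leading libraries (grey) and by the 62 others (orange), in wild-type (wt) and transgenic (Tg) groups, replicates 1 to 3. Summed bars are of similar height in the 9 transgenic libraries, while the orange part is larger in parenchyma (0.657% to 0.893%) than in blood (0.279% to 0.307%).

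Changes between the transgenic groups were tested with edgeR's quasi-likelihood F test on the 9 transgenic libraries, with p-values adjusted over all 11809 genes tested (Benjamini-Hochberg). All 152 genes passed the filter on low counts. A gene was called at an adjusted p below 0.05. It was described as held where the 95% interval of its log2 fold change against blood lay within -1 and 1, so that a larger change lies outside its interval. Both comparisons with transgenic blood use the libraries that chose the genes, and a gene picked for being high in a group tends to be lower elsewhere; a fall from blood is thus favoured by the choice. The estimates of parenchyma against meninges come from libraries that did not enter the choice, although the fit takes its estimate of the spread from all 9 libraries, transgenic blood included.

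In the meninges, few of the 152 genes passed the test. Against transgenic blood 9 rose (5.92% of the 152), beside 4.76% of all genes tested, and 8 fell (5.26%), beside 1.75% of all genes. Falls are favoured by the choice of the genes, so their excess over all genes is a description only. Held within 1 log2 unit were 25, of which 1 was also among the called, beside 70.2% of all genes. The other 111 genes were neither called nor held; the 95% interval held 0 for 67 of them, and for 44 it lay to one side of 0 without passing the adjusted threshold. Intervals were wider than usual, with a median half-width of 0.75 log2 units for the 152 genes and 0.40 for all genes. The median log2 fold change was -0.56, against 0.00 over all genes tested, and 119 of the 152 estimates were below 0. At an unadjusted edgeR p below 0.05, 14 of the 152 were higher and 47 lower, beside 1454 higher and 1118 lower of the 11809 genes tested. The 9 that rose gained between 1.22 and 6.33 log2 units, and the 8 that fell lost between 0.47 and 1.49.

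The 9 that rose in the meninges all came from the 62 genes outside the block. Of those 62 genes, 5 fell and 18 were held, with a median of 0.02. Of the 90 in the block, 0 rose (edgeR, with 0 also at an unadjusted p below 0.05 and 0 by DESeq2), 3 fell and 7 were held, with a median of -0.65. All 90 estimates were below 0. The count of falls dropped whichever library of the 2 groups was left out. It was 4, 1 and 2 without transgenic blood replicate 1, 2 or 3, and 5, 0 and 2 without meninges replicate 1, 2 or 3. Each of these fits has fewer libraries, so the lower counts do not show that a single library carried the falls. The 9 rises became 5 without transgenic blood replicate 2 or meninges replicate 2.

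The largest rise was that of ENSRNOG00000011406. It stood at 0.881, 0.137 and 0.167 CPM in wild-type blood and at 4.62, 6.70 and 6.23 CPM in transgenic blood. Its levels were 267, 575 and 514 CPM in the meninges, and 1674, 1176 and 905 CPM in the parenchyma. All 4 groups were apart. The gene was one of the less abundant of the 152 in transgenic blood and one of the most abundant in the tissues. Its log2 fold change against blood was 6.33 in the meninges (SE 0.37, adjusted p = 2.91e-05) and 7.73 in the parenchyma (SE 0.39, adjusted p = 2.67e-06). It also rose from meninges to parenchyma, by 1.41 (SE 0.29, adjusted p = 0.0131).

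ENSRNOG00000011205 followed in size. Its levels were 1.24, 0.0823 and 0.200 CPM in wild-type blood, 3.53, 9.05 and 5.88 CPM in transgenic blood, 57.9, 188 and 129 CPM in the meninges and 227, 258 and 165 CPM in the parenchyma. Both tissues lay above blood in every library, while meninges and parenchyma overlapped. Its change against blood was a log2 fold change of 4.40 in the meninges (SE 0.46, adjusted p = 0.000558) and 5.13 in the parenchyma (SE 0.47, adjusted p = 6.35e-05). Between the tissues it was 0.73 (SE 0.39, adjusted p = 0.236), which did not pass the test.

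The largest falls in the meninges were small by comparison. ENSRNOG00000019451 stood at 0.933, 0.658 and 2.57 CPM in wild-type blood, at 10.3, 6.46 and 7.30 CPM in transgenic blood, at 3.28, 1.86 and 3.08 CPM in the meninges and at 1.31, 3.34 and 2.56 CPM in the parenchyma. Every tissue library lay below every transgenic blood library and the 2 tissues overlapped, with some tissue values within the range of wild-type blood. Its log2 fold change in the meninges was -1.49 (SE 0.37, adjusted p = 0.0425). The call was lost without any one of the 6 libraries compared, with adjusted p-values from 0.0768 without meninges replicate 1 to 0.179 without meninges replicate 2, and lay between at 0.146, 0.0812 and 0.103 without transgenic blood replicates 1, 2 and 3 and at 0.127 without meninges replicate 3.

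ENSRNOG00000008040 was close to the lower end of detection. Its levels were 0.155, 0 and 0.434 CPM in wild-type blood, 3.30, 2.69 and 3.74 CPM in transgenic blood, 1.23, 0.841 and 1.55 CPM in the meninges and 0.787, 1.05 and 0.684 CPM in the parenchyma. The blood libraries of the transgenic cells were above all others. In the meninges the log2 fold change was -1.35 (SE 0.31, adjusted p = 0.0304), and this call too was lost without any one of the 6 libraries. The adjusted p was then 0.0945, 0.0684 and 0.112 without transgenic blood replicates 1, 2 and 3, and 0.0915, 0.141 and 0.0656 without meninges replicates 1, 2 and 3.

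In the parenchyma most of the 152 genes differed from the transgenic blood level. Against blood 100 fell (65.8% of the 152), beside 16.4% of all genes tested, and 18 rose (11.8%), beside 18.7% of all genes. The genes were chosen as high in the same blood libraries, which favours falls. The excess of falls over all genes is therefore a description only. Held were 12, 1 of which also passed the test, beside 59.8% of all genes, and 23 were neither held nor called. The median log2 fold change was -1.32, against 0.02 over all genes. The falls measured 0.59 to 2.86 log2 units with a median of 1.56, and 95 of the 100 exceeded 1 unit. In 96 of them every parenchymal library lay below every blood library. The 18 rises measured 0.72 to 7.73 units with a median of 2.23, and in 17 the libraries did not overlap. The share without overlap among all called genes is not given here, so nothing is read from these 2 counts. Leaving out 1 library left between 70 and 107 falls and between 16 and 20 rises.

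Most genes that fell in the parenchyma belonged to the block. The block was formed after the values were seen, from the order of these same libraries, so its counts only describe. The share that fell among all genes with the same highest libraries is not given here. Of the 90 genes in the block 83 fell, beside 16.4% of all genes tested. In the block 0 rose (edgeR, with 0 also at an unadjusted p below 0.05 and 0 by DESeq2) and 2 were held, with a median of -1.47. Of the other 62 genes 17 fell, 18 rose and 10 were held, with a median of 0.11. The 62 genes thus spread to both sides of the blood level, with quartiles of -0.83 and 1.30. The number that fell in the block was between 56, without transgenic blood replicate 1, and 88, without parenchyma replicate 2, when single libraries were left out.

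**Figure D4:**
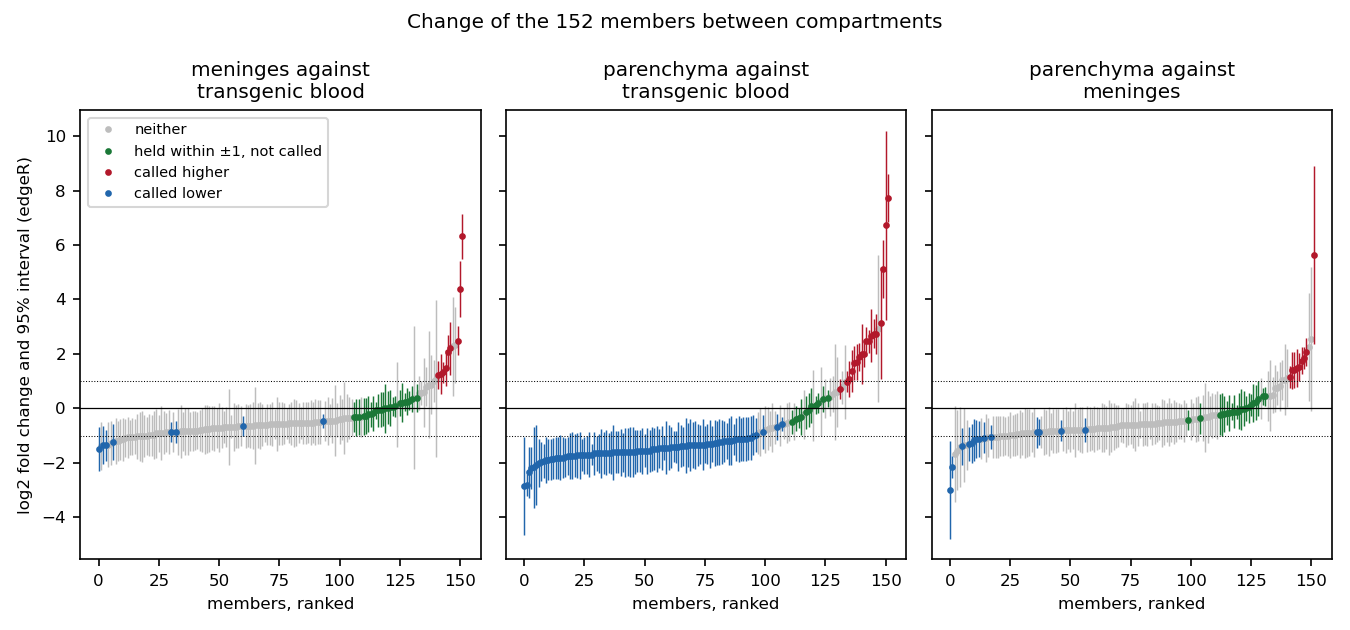
Log2 fold change (y axis, with 95% interval) of the 152 genes ranked from lowest to highest in each of the 3 comparisons, by edgeR; red and blue mark genes called higher and lower, green those held within 1 log2 unit and not called, grey the remainder. Most intervals straddle 0 in the meninges (8 falls), most lie below it in the parenchyma against blood (100 falls), and in every panel a few genes rise far above the rest.

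Among the falls in the parenchyma, ENSRNOG00000030530 was steep and even. It stood at 3.96, 2.80 and 1.54 CPM in wild-type blood, 38.7, 58.7 and 53.6 CPM in transgenic blood, 31.0, 34.3 and 27.0 CPM in the meninges and 7.40, 6.32 and 7.82 CPM in the parenchyma. All 4 groups were apart, and the parenchyma was nearer to wild-type than to transgenic blood. In the parenchyma the log2 fold change was -2.81 against blood (SE 0.18, adjusted p = 1.10e-05) and -2.16 against the meninges (SE 0.18, adjusted p = 0.000252). In the meninges against blood it was -0.65 (SE 0.17, adjusted p = 0.0495), just inside the threshold.

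The fall with the largest estimate, that of ENSRNOG00000049096, rested on few counts and on uneven libraries. Levels were 0.311, 0.0823 and 0.0668 CPM in wild-type blood, 4.85, 0.979 and 1.72 CPM in transgenic blood, 5.53, 1.08 and 1.40 CPM in the meninges and 0.315, 0.412 and 0.324 CPM in the parenchyma, where the 3 libraries held 24 counts in all. Replicate 1 was by far the highest in transgenic blood and in the meninges. The log2 fold change in the parenchyma was -2.86 against blood (SE 0.80, adjusted p = 0.0208), and without transgenic blood replicate 1 it was -1.94 (adjusted p = 0.0831). The adjusted p was 0.0609 without parenchyma replicate 1 and 0.0528 without parenchyma replicate 3. Against the meninges it was -2.99 (SE 0.80, adjusted p = 0.0343). That call was lost when any of 5 libraries was left out, and without meninges replicate 1 the estimate was -1.88. The adjusted p was then 0.107 or 0.0527 (meninges replicate 1 or 3) and 0.0820, 0.0638 or 0.0834 (parenchyma replicate 1, 2 or 3).

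The rise of ENSRNOG00000005825 in the parenchyma was large and very uneven. Its levels were 0.492, 1.18 and 1.20 CPM in wild-type blood, 7.21, 11.6 and 5.82 CPM in transgenic blood and 39.9, 5.53 and 4.54 CPM in the meninges. In the parenchyma they were 292, 32.3 and 2266 CPM. The parenchymal libraries all lay above those of transgenic blood, with replicate 3 far above the other two, while the meninges overlapped with both groups. For the parenchyma it gave a log2 fold change of 6.73 against blood (SE 1.55, adjusted p = 0.00865) and 5.64 against the meninges (SE 1.46, adjusted p = 0.0304). In the meninges against blood it was 1.09 (SE 1.29, adjusted p = 0.681). Over the alternatives tried the rise against blood stayed called, with estimates from 4.29 to 7.28.

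The genes held near the blood level were of very different abundance. The 25 genes held in the meninges had transgenic blood levels from 2.44 to 451 CPM (median 34.8 CPM), and the 12 held in the parenchyma spanned the same range (median 39.2 CPM). Their ratios in blood ran from 4.056 to 28.79 in the meninges and from 4.209 to 28.79 in the parenchyma, so the gene with the largest ratio and genes near the threshold were both among them. Estimates of the held genes ran from -0.47 to 0.39 in the meninges; the parenchymal ones ran from -0.59 to 0.37. The lower ends belong to ENSRNOG00000047005, the gene that was both held and called in each tissue (adjusted p = 0.0456 and 0.00423). It fell from 75.1, 65.5 and 57.8 CPM in transgenic blood to 47.2, 45.8 and 45.4 CPM in the meninges and 42.6, 47.3 and 43.0 CPM in the parenchyma, a small change without overlap with blood.

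Of all 152 genes, ENSRNOG00000001653 had the 95% intervals that stayed nearest to no change in the 2 tissues, with a largest bound of 0.55. It stood at 2.88, 3.10 and 3.14 CPM in wild-type blood, 28.2, 35.9 and 39.1 CPM in transgenic blood, 34.6, 42.4 and 39.2 CPM in the meninges and 38.4, 41.6 and 32.2 CPM in the parenchyma. The 9 transgenic libraries overlapped across compartments and all lay far above wild-type blood. The log2 fold change against blood was 0.22 in the meninges (95% interval -0.11 to 0.55) and 0.11 in the parenchyma (-0.22 to 0.44).

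ENSRNOG00000012906, the gene without a wild-type count, was held as well. After 13.1, 16.0 and 12.6 CPM in transgenic blood it had 14.0, 15.7 and 12.6 CPM in the meninges and 19.3, 13.4 and 15.4 CPM in the parenchyma. Against blood, the log2 fold change was 0.08 in the meninges (95% interval -0.31 to 0.46) and 0.20 in the parenchyma (-0.19 to 0.58). The transcript with the largest ratio in blood was therefore present at an overlapping level in all 9 transgenic libraries.

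The most abundant transcript, ENSRNOG00000053047, belonged to the block. From 932, 618 and 595 CPM in transgenic blood it stood at 518, 271 and 416 CPM in the meninges and at 129, 352 and 221 CPM in the parenchyma. Both tissues lay below transgenic blood in every library but overlapped with each other, and parenchyma overlapped with wild-type blood at 80.5, 52.7 and 209 CPM. It fell by 1.63 on the log2 scale in the parenchyma (SE 0.37, adjusted p = 0.00777). In the meninges the estimate was -0.78 (SE 0.36, adjusted p = 0.244), which did not pass.

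**Figure D5:**
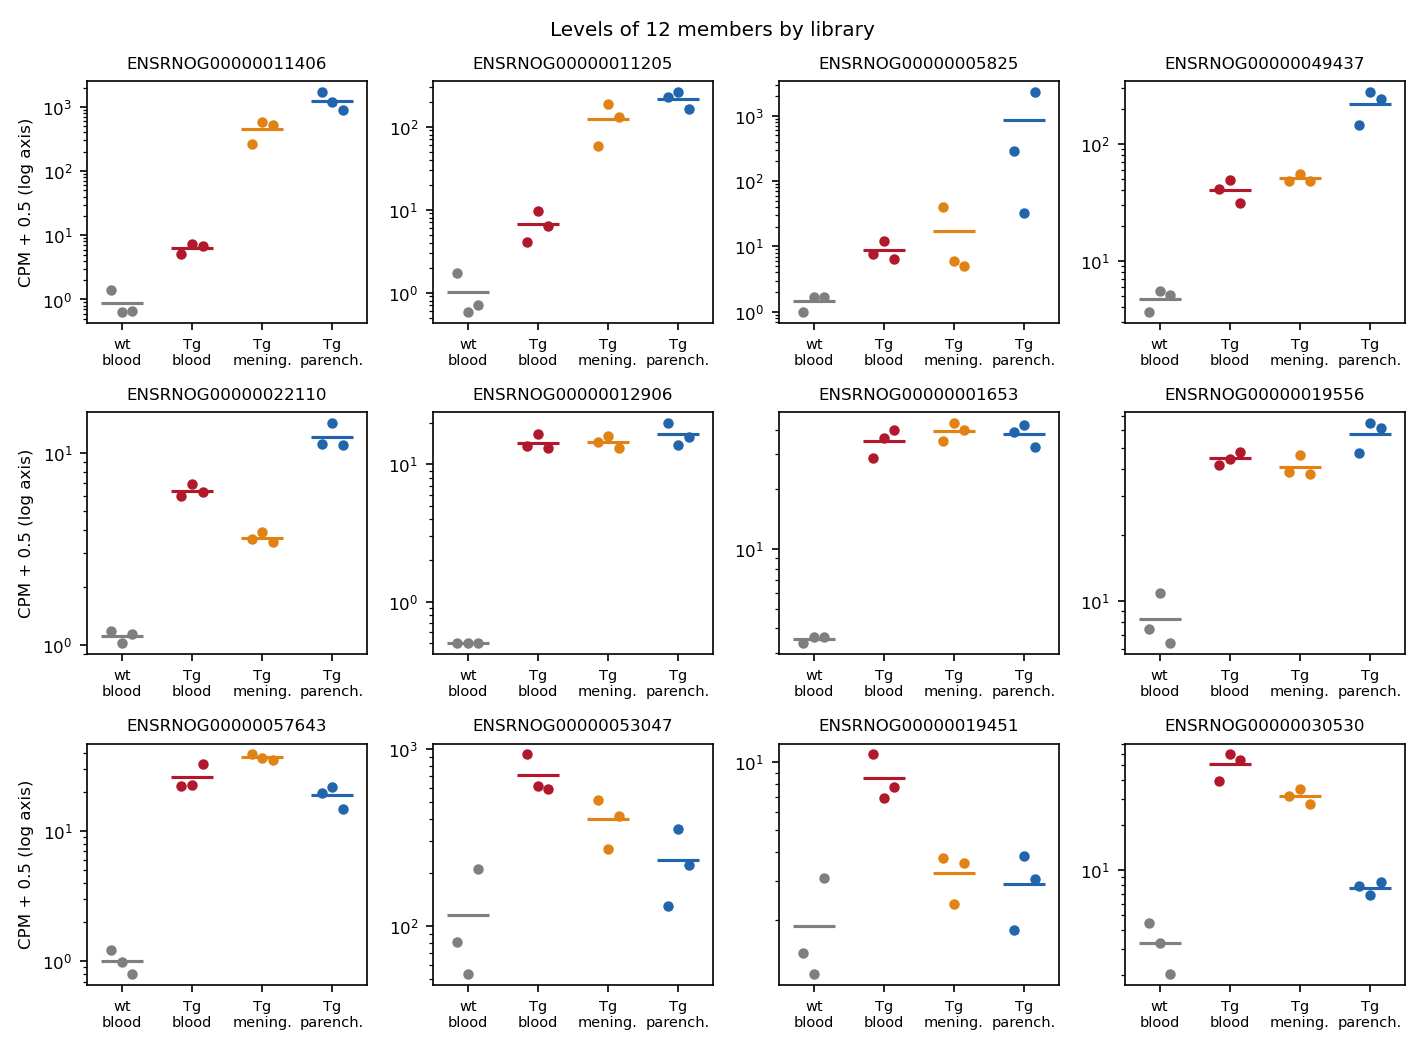
CPM + 0.5 (log axis) of 12 of the genes in each library of wild-type (wt) blood and transgenic (Tg) blood, meninges and parenchyma; points are libraries and lines are group means. ENSRNOG00000011406 is higher in the meninges than in blood and highest in the parenchyma. ENSRNOG00000001653 and ENSRNOG00000012906 are level across the transgenic groups, and ENSRNOG00000030530 is lower in the parenchyma than in the other transgenic groups.

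The 2 genes that were uneven in transgenic blood depended on its replicate 1 here too. ENSRNOG00000036604 had 223, 123 and 112 CPM in the meninges and 52.0, 29.8 and 67.1 CPM in the parenchyma. All meningeal libraries lay above those of blood, and the parenchymal ones lay between the high and the low blood libraries. The log2 fold change against blood was 2.28 in the meninges (adjusted p = 0.138) and 0.59 in the parenchyma (adjusted p = 0.589). Without transgenic blood replicate 1 these became 4.25 (adjusted p = 0.00184) and 2.55 (adjusted p = 0.00448).

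ENSRNOG00000021802 had 669, 476 and 436 CPM in the meninges and 243, 192 and 211 CPM in the parenchyma. The meninges were again the highest group. Its log2 fold change was 2.33 in the meninges (adjusted p = 0.0587) and 0.97 in the parenchyma (adjusted p = 0.241), and without transgenic blood replicate 1 they were 3.69 (adjusted p = 0.000569) and 2.32 (adjusted p = 0.000985). Neither gene counts as shifted or as held with all libraries included.

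Fewer genes were called between meninges and parenchyma than between blood and parenchyma. Parenchyma was higher for 9 of the 152 (5.92%), beside 8.0% of all genes tested, and lower for 14 (9.21%), beside 7.48% of all genes. Both shares were close to the background. Fitted on the libraries of these 2 tissues alone, without those that chose the genes, 8 were higher and 10 lower. The estimates lay mostly on one side: 124 of 152 were below 0, with a median of -0.61 against 0.02 over all genes. At an unadjusted edgeR p below 0.05, 52 of the 152 were lower and 15 higher. Beside them stood 1716 lower and 1934 higher of the 11809 genes tested. The 9 rises measured 1.15 to 5.64 log2 units (median 1.52) and the 14 falls 0.78 to 2.99 (median 1.12). In all 14 falls and 8 of the 9 rises the libraries did not overlap, again without the matching share among all called genes.

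The block had 6 of the 14 falls and 0 of the rises (edgeR, with 0 also at an unadjusted p below 0.05 and 0 by DESeq2), with a median of -0.77, while the other 62 genes had 8 falls and 9 rises, with a median of -0.11. Without parenchyma replicate 2, the highest parenchymal library for the block, 48 genes fell, 41 of them in the block. The share of all genes called lower in that fit is not given here, so nothing is read from the larger count. The number of falls was 9 without parenchyma replicate 1, and leaving out meninges replicate 1, 2 or 3 gave 5, 9 or 6. The part of the uneven replicates in this count was not tested further.

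ENSRNOG00000049437 passed the test between the tissues and was held in the meninges against blood. It stood at 3.14, 4.99 and 4.61 CPM in wild-type blood, 40.9, 48.1 and 30.5 CPM in transgenic blood, 47.2, 55.2 and 48.1 CPM in the meninges, and 145, 275 and 242 CPM in the parenchyma. Blood and meninges overlapped, and the parenchyma lay above both. Its log2 fold change was 2.07 from meninges to parenchyma (SE 0.23, adjusted p = 0.000921). In the meninges against blood it was 0.39 (SE 0.23, 95% interval -0.12 to 0.90), within the bounds for held.

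ENSRNOG00000022110 was lower in the meninges and higher in the parenchyma than in transgenic blood. It had 0.674, 0.521 and 0.634 CPM in wild-type blood, 5.46, 6.46 and 5.76 CPM in transgenic blood, 3.06, 3.37 and 2.95 CPM in the meninges and 10.8, 13.8 and 10.5 CPM in the parenchyma. No 2 groups overlapped. The log2 fold change was -0.86 in the meninges against blood (SE 0.18, adjusted p = 0.0189), 0.98 in the parenchyma against blood (SE 0.17, adjusted p = 0.00238) and 1.84 between the tissues (SE 0.18, adjusted p = 0.000512).

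Across the transgenic groups, some genes were graded from compartment to compartment. In 9 genes every blood library lay above every meningeal library and every meningeal library above every parenchymal one, beside 4.19% of all genes tested. In 5 genes the reverse order held, beside 5.04% of all genes, and these 5 were all outside the block. Such graded patterns were about as common among the 152 as among all genes.

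Set against wild-type blood, the 152 genes as a whole remained above it in the meninges and less so in the parenchyma. In 137 of them every meningeal library lay above every wild-type blood library, beside 24.8% of 12105 genes, and in 70 every parenchymal library did, beside 30.0%. Wild-type blood entered the choice of the genes, so these counts describe how far the difference carried over and support nothing further. Of the 90 genes in the block, 77 kept the separation in the meninges and 13 in the parenchyma. Of the other 62, 60 kept it in the meninges and 57 in the parenchyma.

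A position between the 2 blood means, with wild-type at 0 and transgenic at 1 on the log2(CPM + 0.5) scale, restates this per gene. Both ends of the scale chose the genes, which favours positions between them. The position was not computed for other genes, so these values are a description and no separate support. The median position was 0.733 in the meninges and 0.449 in the parenchyma. In the block it was 0.694 and 0.377, and among the other 62 genes it was 0.990 and 1.04. The mean of a tissue was at or below the wild-type mean for 0 of the 152 genes, and above the transgenic blood mean for 29 in the meninges and 33 in the parenchyma, all of them outside the block. The median log2 difference from wild-type blood was 1.72 in the meninges and 1.04 in the parenchyma, with 0.85 for the block and 2.81 for the others in the parenchyma.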

How the data were processed

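The authors deposited 1 table of whole-number gene counts per library, with 32754 rows; 12342 rows had no count in any library. Per the submitters' processing notes, the build was rn6 and the tools included STAR 2.5 (an aligner) and featureCounts 1.5.0-p1 (a read counter). Settings, annotation and strandedness are not given in the sources used, so antisense or overlapping partners and near-identical copies cannot be separated.

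CPM used file totals. The genes and the sets were chosen with earlier results of these data known. Changes were fitted with edgeR 4.0.16 in R 4.3.3 on the 9 transgenic libraries, which share 1 estimate of the spread (filterByExpr with a minimum count of 10, TMM scaling, two-sided quasi-likelihood F test, 6 residual degrees of freedom). SE is the size of the log2 fold change divided by the square root of F. The fit was tested on simulated data. Alternatives were DESeq2 1.42.0, intervals from limma 3.58.1, DESeq2 size factors, no filter, fewer groups, a replicate block and omission of each library.

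Identifiers printed are the genes with the largest changes in each direction among called genes without overlap between libraries (at most 2 per direction and comparison), and those most closely held, most abundant in transgenic blood or of largest ratio; others are said to be chosen after their values were seen. The reference table held 0 lines with an Ensembl rat identifier, so gene lists and cell type markers could not be applied, and no sequence is shown. Pairs of replicates differed beyond sampling noise (lowest chi-square per degree of freedom 13.9). Same-numbered libraries did not deviate together throughout, so the replicate numbers were not treated as pairs.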

Additional observations from a re-analysis of the deposited data

Results flagged for a closer look

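In 2 genes the meninges and the parenchyma lay on opposite sides of transgenic blood in every library. The share of all genes with such a pattern is not given here, so nothing is read from their number. For ENSRNOG00000022110 the meninges were lower and the parenchyma higher, and edgeR's test of parenchyma against meninges gave a log2 fold change of 1.84 (adjusted p = 0.000512). For ENSRNOG00000057643 the order was reversed: 21.7, 22.2 and 32.1 CPM in transgenic blood became 38.2, 36.2 and 34.4 CPM in the meninges and 19.2, 21.4 and 14.3 CPM in the parenchyma, with a log2 fold change of -1.06 between the tissues (SE 0.20, adjusted p = 0.00864). Against blood, neither tissue passed the test for ENSRNOG00000057643, with 0.57 in the meninges (adjusted p = 0.125) and -0.49 in the parenchyma (adjusted p = 0.0805). In the parenchyma this gene counts as held (95% interval -0.93 to -0.05).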

How the results depend on the processing

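Each printed gene with the largest changes kept the sign of the change it was printed for under every alternative run; the other genes printed were not followed through all alternatives. The balance of calls among the 152 genes did turn. The shares of all genes called under each alternative are not given here, so the turn is not read as particular to these genes. In the meninges against blood, 9 rises and 8 falls became 10 and 28 with only the 2 groups compared, 11 and 29 with DESeq2, 10 and 13 without the filter on low counts, and 9 and 10 with file totals without TMM. Between the tissues, 9 rises and 14 falls became 8 and 5 without meninges replicate 1, 7 and 6 without meninges replicate 3, and 12 and 9 without parenchyma replicate 1. In the parenchyma against blood, the 100 falls ranged from 70 to 107 and the 18 rises from 16 to 20 over all alternatives, and the 12 held genes from 8 to 17. The 8 falls in the meninges became 4 with the replicate block and 0 to 5 with 1 library left out. With 1 library left out, the 9 rises in the meninges ranged from 5 to 10 and the 25 held genes from 16 to 28. The 14 falls from meninges to parenchyma became 25 without the filter, 31 with DESeq2 and 5 to 48 with 1 library left out. The cause was not tested. The replicate block gave 12 rises in the meninges, 17 rises and 82 falls in the parenchyma against blood, and 8 rises and 12 falls between the tissues. It also ended the calls of ENSRNOG00000019451 (adjusted p = 0.0852) and ENSRNOG00000008040 (adjusted p = 0.0571) in the meninges, and leaving out the filter ended the latter (adjusted p = 0.0592). Same-numbered libraries correlated between -0.323 and 0.288. For replicates 1, 2 and 3 the values were 0.273, 0.288 and 0.0513 between transgenic blood and meninges. Each was the highest of that blood library with any meningeal library. They were -0.0949, -0.147 and 0.0197 between blood and parenchyma, and -0.149, 0.0203 and -0.323 between meninges and parenchyma. Whether the numbers mark pairs in blood and meninges was not tested. The rule itself chose 14 genes at 8 times in place of 4, and 99 to 211 with 1 blood library left out: 99 without wild-type blood replicate 2 and 99 without transgenic blood replicate 1, of which 96 were among the 152 in each case. It chose 148 with TMM scaling, and 178 and 120 with pseudocounts of 0.1 and 1. File totals without TMM, and TMM-scaled CPM for counts of libraries without overlap, were added after seeing the data and left every count within 1.5 times. Precision limits the held genes, since a gene with a wide interval cannot be described as held.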
